A study of Mus musculus with 22 samples.

Results

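The Myc neighbourhood was taken as the probes whose midpoint lies between 59 and 65 Mb on chromosome 15, by the positions in the array files. It holds 433 probes, read from 441 spots, of 9142 probes on chromosome 15 and 235402 on the array. One probe carries the name of Myc itself. Every array compared genomic DNA of Atm-deficient thymocytes in the Cy5 channel with that of wildtype thymocytes in the Cy3 channel. The dyes were never swapped, so dye and genotype cannot be told apart. There were 8 Atm-deficient mice with a T-cell lymphoma and 14 Atm-deficient mice without macroscopic findings, each on 1 array. All 22 mice were deficient in Atm, a kinase that signals DNA double-strand breaks, and none was treated. Strain, age, sex and the altered part of Atm are not stated, nor do the labels say whether the wildtype DNA was 1 animal or a pool. A value is the log2 of Atm-deficient signal over wildtype signal, centred on the autosomal median of each array, so 0 is the level of an autosome present at its usual number. DNA was taken from whole thymocyte samples, so the share of cells that carry a gain and the number of extra copies per cell cannot be told apart.

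Myc encodes a transcription factor that pairs with Max and drives genes of cell growth, metabolism and division. Extra copies of chromosome 15, which carries Myc, are a known recurrent change of mouse thymic lymphomas. Myc lies in a gene-poor stretch, next to the long noncoding RNA gene Pvt1, and enhancers far from the gene act on it in lymphoid cells. A rise in Myc dose can come from a whole extra chromosome, from a gain of a large part of it, or from a small amplicon around the gene.

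The arrays fell into 6 scan batches, which are the days of scanning given in the file headers. Lymphoma mice 1, 3 and 4 shared batch 1 with no-lymphoma mouse 2. Lymphoma mice 2 and 5 shared batch 3 with no-lymphoma mice 5 and 6. Lymphoma mouse 8 shared batch 5 with no-lymphoma mice 7, 11 and 14, while lymphoma mice 6 and 7 shared batch 6 with no-lymphoma mouse 13. Batches 2 and 4 held no lymphoma array. The noise of an array, an SD taken from the differences between neighbouring autosomal probes, ran from 0.15 to 0.37 in lymphoma and from 0.13 to 0.55 in no-lymphoma arrays. Noise was highest, at 0.55, 0.49 and 0.51, on arrays labelled as no-lymphoma mouse 3, 4 and 9. Of 231 pairs of arrays, 8 correlated under -0.3 over autosomal probes. In 3 of these pairs lymphoma mouse 3 stood against arrays labelled as no-lymphoma mouse 3, 4 and 9, with r of -0.44, -0.48 and -0.41. Among themselves the arrays labelled as no-lymphoma mouse 3, 4 and 9 correlated at 0.82 to 0.87. No-lymphoma mice 7 and 14 correlated at 0.82, against a median r of 0.16 over all pairs. The group tests count each array as 1 independent mouse and make no allowance for such likeness. The dyes are stated for every array and the labelled direction was kept, but for such arrays it is not settled by the data, so results are also given with the sign of these 3 arrays turned. Within the stretch the probes averaged 36.8% GC against 36.8% on the rest of the chromosome, and lay a median of 10944 bp apart with 61970 bp at the widest. Of the 433, 430 were flagged as well above background in both channels of all arrays. Dim spots could carry this flag: the Myc spot of no-lymphoma mouse 14 did, at 7.5 intensity units over background in red and 8 in green.

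The probe that reads Myc decides what can be said of the gene itself, and 3 others gave some of the widest departures from their surroundings. Their sequences, from the array files, are printed 5′ to 3′. The files state neither genome build nor strand for them. DNA was cut with AluI (AGCT) and RsaI (GTAC) before labelling, and neither site occurs in any of the 433 probes of the stretch, against 49 (0.0223%) and 30 (0.0136%) of 220065 autosomal probes, so no base is set in capitals.
Myc probe, chr15:62060783-62060842: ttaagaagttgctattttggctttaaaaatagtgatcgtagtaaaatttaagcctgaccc
Nsmce2 probe, chr15:59609348-59609400: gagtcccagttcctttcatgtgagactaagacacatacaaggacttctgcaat
Cyrib probe, chr15:64038608-64038667: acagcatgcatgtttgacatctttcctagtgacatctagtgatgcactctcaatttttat
Asap1 probe, chr15:64457492-64457551: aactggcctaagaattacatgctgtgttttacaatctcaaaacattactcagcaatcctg
The Myc probe was AT-rich, with 31.7% GC, while the Nsmce2 probe had 43.4% and the Cyrib and Asap1 probes 36.7% each.

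The stretch around Myc was gained in the lymphomas. Its median log2 ratio was 0.57, 0.61, 0.53, 0.59, 0.57, 0.55, 0.58 and 0.20 in lymphoma mice 1 to 8. In the 14 no-lymphoma arrays it ran from -0.08 to 0.59 with a median of 0.04. Lymphoma mice 1 to 7 lay close together around 0.58, the value of 3 copies against 2, and lymphoma mouse 8 lay well below them. No-lymphoma mouse 11 reached 0.59, among lymphoma mice 1 to 7. No-lymphoma mice 14 and 7 read 0.27 and 0.21, above lymphoma mouse 8. The array labelled no-lymphoma mouse 9 read 0.30, also above lymphoma mouse 8, and the other 10 arrays lay between -0.08 and 0.09. A level above 0.25 was reached by 7 of 8 lymphoma and 3 of 14 no-lymphoma arrays.

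The stretch averaged 0.53 ± 0.13 in lymphoma mice (SD, n = 8) and 0.12 ± 0.17 in no-lymphoma mice (SD, n = 14). The difference of 0.41 was larger than the spread between mice (two-sided exact permutation test over 319770 splits, p = 9.69e-05, adjusted p = 0.000485 over 5 tests). It was 0.39 in the fit blocked by scan batch (exact permutation p = 0.0139) and 0.47 with the sign of arrays labelled as no-lymphoma mouse 3, 4 and 9 turned. Within scan batches 1, 3 and 6 the lymphoma arrays were higher by 0.56, 0.57 and 0.54. Within batch 5 the order was the opposite: lymphoma mouse 8 read 0.20, against a mean of 0.36 for no-lymphoma mice 7, 11 and 14, a difference of -0.16. If the wildtype DNA holds 2 copies, the levels correspond to 2.89 ± 0.24 copies per cell in lymphoma mice, against 2.18 ± 0.29 in no-lymphoma mice, averaged over all cells of a sample.

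**Figure D1:**
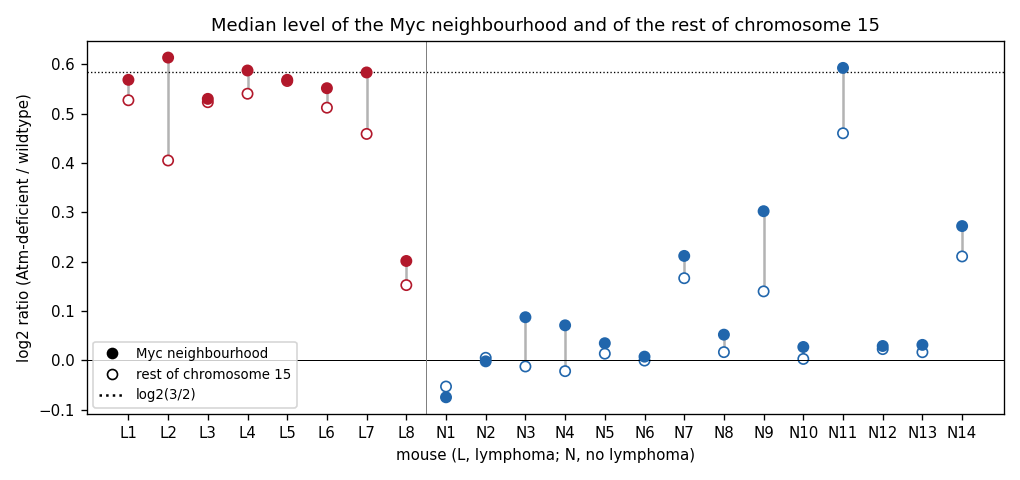
Median log2 ratio of the 433 probes around Myc (filled) and of the rest of chromosome 15 (open) in each mouse, lymphoma in red and no lymphoma in blue, with log2 of 3 over 2 dotted. In 7 lymphoma mice both levels lie between 0.40 and 0.61, and no-lymphoma mouse 11 stands with them at 0.59 and 0.46.

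The gain reached over much of the rest of chromosome 15, but not over its proximal part in lymphoma mice 2 and 7. The chromosome outside the stretch averaged 0.46 ± 0.13 in lymphoma mice, against 0.07 ± 0.14 in no-lymphoma mice. The stretch exceeded the rest of its own chromosome by 0.04, 0.21, 0.01, 0.05, 0.0024, 0.04, 0.12 and 0.05 in lymphoma mice 1 to 8. In no-lymphoma arrays this excess ran from -0.02 to 0.16 with a median of 0.03. The excess thus overlapped widely between the groups. It was above 0 in 8 of 8 lymphoma and 12 of 14 no-lymphoma arrays.

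In lymphoma mice the mean excess of 0.06 ± 0.07 differed from 0 in a two-sided exact sign-flip permutation test (p = 0.00781, the smallest that 8 arrays allow, adjusted p = 0.0195). That test leaves out the spread of the wildtype DNA, and no-lymphoma arrays showed nearly the same excess, 0.05 ± 0.05. The difference between the groups, 0.02, was within the spread between mice (exact permutation p = 0.543, and p = 0.25 blocked by scan batch, where it was 0.04). With the sign of arrays labelled as no-lymphoma mouse 3, 4 and 9 turned it was 0.07 (exact permutation p = 0.0458), with normexp background correction 0.06 (exact permutation p = 0.0127), and without lymphoma mouse 2 it was -0.0039. For the narrower interval from 61 to 63 Mb, the excess in lymphoma mice was 0.03 and did not pass the sign-flip test (exact permutation p = 0.234).

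Lymphoma mice 2 and 7, which had the largest excess, carried the gain on only a part of the chromosome. Up to 35 Mb, chromosome 15 read -0.06 and -0.06 in lymphoma mice 2 and 7, against 0.43 to 0.52 in lymphoma mice 1, 3, 4, 5 and 6. The best single step of the chromosome lay at chr15:40626332-40640807 in lymphoma mouse 2, with means of -0.03 before and 0.54 after it. In lymphoma mouse 7 it lay at chr15:33234084-33240384, with means of -0.07 before and 0.55 after it. Both steps are far on the proximal side of Myc, and the stretch around Myc lay wholly within the gained part. Compared with the part of the chromosome beyond 65 Mb only, the stretch differed by 0.06 in lymphoma mouse 2, by 0.01 in lymphoma mouse 7, and by -0.06 to 0.02 in the other lymphoma mice. The array labelled no-lymphoma mouse 9 had its best single step at chr15:48139859-48163478, also with the stretch in the higher part, with means of -0.06 before and 0.20 after it. No-lymphoma mouse 11 had its best single step at chr15:7592006-7619937, with means of 0.15 before and 0.49 after it.

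**Figure D2:**
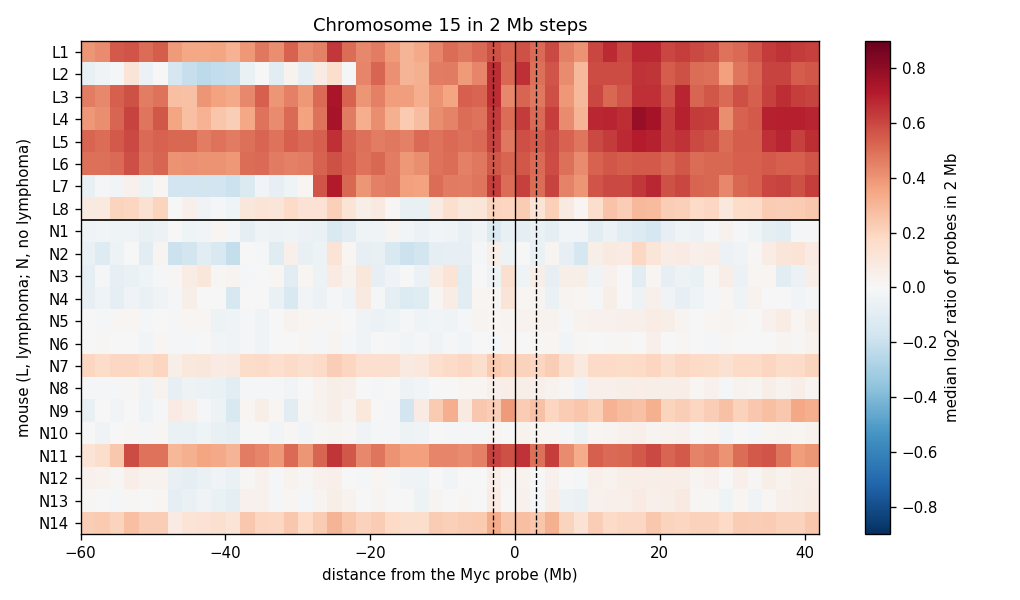
Median log2 ratio of chromosome 15 in 2 Mb steps (colour) by distance from the Myc probe (Mb), one row per mouse, lymphoma above no lymphoma, with a solid line at Myc and dashed lines at the ends of its neighbourhood. Lymphoma mice 2 and 7 show no gain at the proximal end and a gain that runs through Myc to the distal end, and no-lymphoma mouse 11 is gained along nearly the whole chromosome.

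No segment that holds Myc reached 0.25 above the rest of chromosome 15 in any array, the highest being 0.24 in lymphoma mouse 2. For this, each array was divided along chromosome 15 into segments of steady level. In lymphoma mice 1, 3, 6 and 8 the whole stretch fell into 1 segment, with means of 0.56, 0.60, 0.55 and 0.18 and a length of 10.9 to 13.6 Mb. In lymphoma mice 2, 4, 5 and 7 the stretch held 4, 1, 2 and 3 borders, and the steps across them were at most 0.21. In no-lymphoma arrays borders were found in mice 2, 6 and 11, with steps of at most 0.16.

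In lymphoma mouse 4 and no-lymphoma mouse 11 the highest segment of the stretch held Myc, at 0.62 in each. In lymphoma mice 2, 5 and 7 the highest segment lay not at Myc but at the proximal end, over Mtss1, Sqle, Nsmce2 and Trib1. It read 0.75 over 75 probes (chr15:59022044-59722637) in lymphoma mouse 2, 0.72 over 78 probes (chr15:59034188-59764379) in lymphoma mouse 5 and 0.72 over 98 probes (chr15:58921864-59764379) in lymphoma mouse 7. These segments stood 0.34, 0.16 and 0.26 above the rest of chromosome 15 in the same mice, and 0.19, 0.10 and 0.14 above the level beyond 65 Mb. That of lymphoma mouse 2 was the 1 segment wholly inside the stretch that reached 0.25 above the rest, against 0 in no-lymphoma arrays, and that of lymphoma mouse 7 reached beyond the proximal edge. The first Mb of the stretch, from 59 to 60 Mb, exceeded the rest of the chromosome by 0.16 ± 0.08 in lymphoma mice and by 0.09 ± 0.09 in no-lymphoma mice, in 8 of 8 and 13 of 14 arrays. A higher level at this end was thus read in most arrays of both groups. After regression on GC content it was 0.17 ± 0.09 and 0.09 ± 0.09.

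The segment that holds Myc began close to the gene in 2 lymphomas. Their arrays were among the most finely divided, with 49 segments on chromosome 15 in lymphoma mouse 2 and 37 in lymphoma mouse 7. In the other arrays the segments of this chromosome numbered 1 to 42. In lymphoma mouse 2 the segment that holds Myc began at the Myc probe itself and ran over 198 probes (chr15:62060783-64446418) at 0.64, against 0.53 before and 0.47 after it. In lymphoma mouse 7 it began at the probe before Myc and ran over 194 probes (chr15:62055727-64420198) at 0.61, against 0.51 before and 0.46 after it. The distal border, between 64.39 and 64.47 Mb in Asap1, was also found in lymphoma mouse 4 and in no-lymphoma mouse 11. The Mb that holds Myc, from 62 to 63 Mb, exceeded the rest of the chromosome by 0.06 ± 0.08 in lymphoma mice, against 0.02 ± 0.06 in no-lymphoma mice, and the Mb before it by 0.00069 ± 0.06 and 0.04 ± 0.06.

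**Figure D3:**
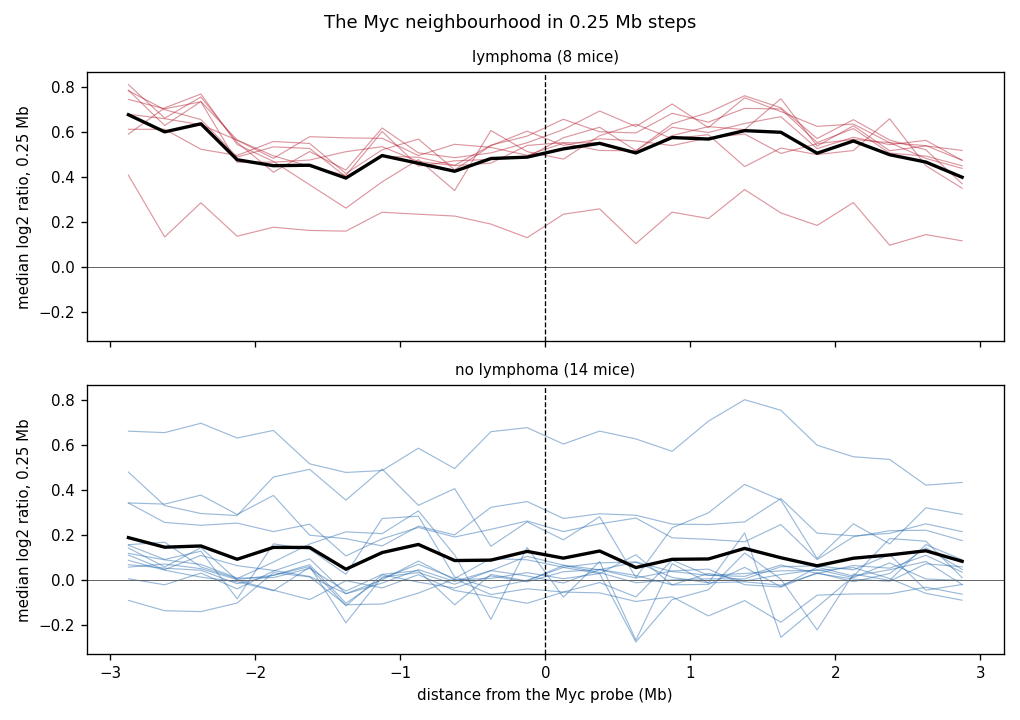
Median log2 ratio in 0.25 Mb steps by distance from the Myc probe (Mb), with 1 thin line per mouse and the group mean in black, lymphoma above no lymphoma. In both groups the line through Myc (dashed) stays near the level on either side, and 7 of 8 lymphoma mice run together while lymphoma mouse 8 runs lower.

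Probes that passed the test lay higher in lymphoma throughout. Of 433 probes, 200 were higher in lymphoma and 0 lower (limma across 220065 autosomal probes, adjusted p under 0.05). On all autosomes 2.32% of probes were called higher and 0.818% lower, and on the rest of chromosome 15 the share called higher was 35.5%, against 46.2% in the stretch. The median difference over the stretch was 0.42, against 0.0036 over all autosomal probes. With scan batch as a block, 38 probes of the stretch were called higher, with a median difference of 0.39, against 0.799% of autosomal probes called higher and 0.25% lower in that fit.

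Once the median of chromosome 15 in the same array was taken off, 0 of 433 probes differed between the groups (limma, smallest adjusted p = 0.120), against 0.703% of autosomal probes called higher and 0.442% called lower. At an unadjusted p under 0.05 there were 44 probes of the stretch, while 14.1% of all autosomal probes passed that limit. The robust fit also called 0. Without arrays labelled as no-lymphoma mouse 3, 4 and 9, 4 probes were called, all higher in lymphoma by 0.25 to 0.33 within the chromosome, against 0.943% of autosomal probes higher and 0.747% lower in that fit. They lie in Mtss1, in the transcript AK076851 and at chr15:62948427-62948486 and chr15:63670595-63670654, and were named after their values were seen. With the sign of these 3 arrays turned, 4 were called higher as well, against 1.31% of autosomal probes higher and 1.07% lower. They were not all the same probes. The probe at chr15:62948427-62948486 was not called there (limma adjusted p = 0.0611), while a probe of Nsmce2 (chr15:59481857-59481916) was (limma adjusted p = 0.0306).

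At 2 probes the groups did not overlap at all, both higher in lymphoma. Of autosomal probes, 0.0486% did so with lymphoma higher and 0.0236% with lymphoma lower. The 2 probes were likewise named after their values were seen. A probe in Cyrib (chr15:64108805-64108864) read 0.55 to 0.79 in lymphoma mice, against -0.12 to 0.39 in no-lymphoma mice, a difference of 0.58 (SE 0.07, limma adjusted p = 6.67e-05). A probe without a gene name (chr15:63266196-63266255) read 0.38 to 0.73 in lymphoma mice, against -0.48 to 0.35 in no-lymphoma mice.

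The probes name 34 genes and transcripts, of which 14 have a gene symbol. Of these 14, 13 were higher in lymphoma (limma on gene means, adjusted p under 0.05), against 5.08% of 24624 autosomal genes called higher and 1.18% called lower. The exception was Ndufb9, a subunit of respiratory complex I at the proximal edge with 1 probe, at 0.45 ± 0.22 in lymphoma mice, against 0.10 ± 0.29 in no-lymphoma mice (limma adjusted p = 0.0750). With scan batch as a block 6 of the 13 still passed: Mtss1, Sqle, Gsdmc3, Cyrib, Asap1 and Adcy8. In that fit 2.19% of genes were called higher and 0.268% lower. The other 7 did not, with adjusted p from 0.0607 (Nsmce2) to 0.342 (Gsdmc2).

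Mtss1, which encodes a membrane-bending regulator of actin, had 18 probes and read 0.34 to 0.79 in lymphoma mice with a median of 0.70. In no-lymphoma mice it read -0.12 to 0.55 with a median of 0.13. It was the lowest in lymphoma mouse 8. No-lymphoma mouse 11, at 0.55, and the array labelled no-lymphoma mouse 9, at 0.47, reached the lymphoma range. The difference was 0.47 (SE 0.08, limma adjusted p = 0.000300). Next to it, Sqle, the squalene epoxidase of cholesterol synthesis, averaged 0.61 ± 0.21 in lymphoma mice, against 0.09 ± 0.18 in no-lymphoma mice (limma adjusted p = 0.000210). Washc5, a subunit of the WASH complex on endosomes, averaged 0.50 ± 0.23 and 0.03 ± 0.18 in these groups.

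Nsmce2, the SUMO ligase of the SMC5/6 complex in DNA repair, had 28 probes and read 0.63 ± 0.18 in lymphoma mice, against 0.15 ± 0.21 in no-lymphoma mice. Trib1, a pseudokinase that brings transcription factors to the COP1 ubiquitin ligase, had 1 probe. This probe read 0.37 to 1.05 in lymphoma mice with a median of 0.80, and -0.0028 to 0.87 in no-lymphoma mice with a median of 0.26. It was thus above 0.25 in 8 of 8 lymphoma and 9 of 14 no-lymphoma arrays, including arrays without a gain of the stretch. The difference was 0.45 (SE 0.11, limma adjusted p = 0.00861).

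On the distal side of Myc lie the gasdermin C genes, members of a family of pore-forming proteins. Gsdmc averaged 0.52 ± 0.15 in lymphoma mice, against 0.17 ± 0.26 in no-lymphoma mice, Gsdmc2 averaged 0.60 ± 0.16 and -0.03 ± 0.43, and Gsdmc3 averaged 0.42 ± 0.10 and -0.04 ± 0.24. Their 1 or 2 probes each gave wide spreads among no-lymphoma arrays. Arrays labelled as no-lymphoma mouse 3, 4 and 9 read -0.95, -0.77 and -0.42 for Gsdmc2 and 0.43, 0.52 and 0.82 for Gsdmc. With the sign of these arrays turned, the difference for Gsdmc2 was 0.33 (limma adjusted p = 0.0778), against 0.63. For Gsdmc it was then 0.61 against 0.36, and for Gsdmc3 0.29 against 0.45. Cyrib, which binds Rac1 and restrains actin branching, had 19 probes at 0.56 ± 0.19 in lymphoma mice, against 0.01 ± 0.23 in no-lymphoma mice.

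Asap1, an activator of Arf GTPase hydrolysis, had 41 probes, the most of the 14 genes. It read 0.55, 0.57, 0.55, 0.59, 0.55, 0.55 and 0.58 in lymphoma mice 1 to 7 and 0.15 in lymphoma mouse 8. In no-lymphoma mice it read -0.05 to 0.55 with a median of 0.03. The values of 7 lymphoma mice were nearly equal, and no-lymphoma mouse 11 fell among them. The difference was 0.43 (SE 0.07, limma adjusted p = 0.000238). Adcy8, a calcium-stimulated adenylyl cyclase at the distal edge, averaged 0.39 ± 0.12 in lymphoma mice, against 0.06 ± 0.13 in no-lymphoma mice.

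Lratd2, between Trib1 and Myc, averaged 0.59 ± 0.26 on its 1 probe in lymphoma mice, against 0.08 ± 0.27 in no-lymphoma mice. No probe carries the name of Pvt1. The first named probe beyond Myc, 54157 bp from it, belongs to the transcript AK043790, which the RefSeq table used here does not name. AK043790 averaged 0.52 over 22 probes in lymphoma mice, against 0.11 in no-lymphoma mice, and the transcript AK144854 averaged 0.53 over 41 probes in lymphoma mice, against 0.10 in no-lymphoma mice.

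**Figure D4:**
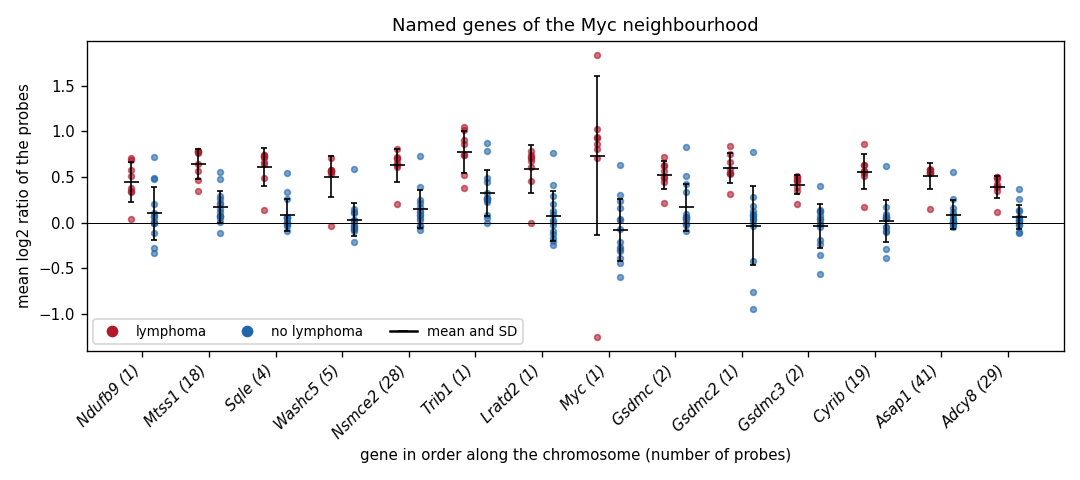
Mean log2 ratio of the probes of each of 14 named genes in every mouse (points), with group mean and SD, in order along the chromosome, lymphoma left and no lymphoma right in each pair. Asap1, with 41 probes, runs from 0.55 to 0.59 in lymphoma mice 1 to 7, and Myc, with 1 probe, has the widest spread among lymphoma mice, from -1.25 to 1.84.

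The single Myc probe scattered widely among lymphoma mice, with an SD of 0.87. It read 0.87, 1.02, 0.94, 0.93, 0.80, -1.25, 0.71 and 1.84 in lymphoma mice 1 to 8. In no-lymphoma arrays it ran from -0.60 to 0.64 with a median of -0.14 and an SD of 0.34. Some single probes nearby scattered more widely in no-lymphoma arrays, with SDs of 0.82 at chr15:62037795-62037854 and 0.63 at chr15:62066113-62066172. The first read -1.76, -1.63 and -1.35 on arrays labelled as no-lymphoma mouse 3, 4 and 9, and -0.31 to 0.94 on other no-lymphoma arrays. The second read -1.42, -1.25 and -0.93 on those arrays, and -0.25 to 0.92 on other no-lymphoma arrays. The 40 probes nearest to the Myc probe had medians of 0.23 to 0.59 in lymphoma mice, against -0.07 to 0.64 in no-lymphoma mice. Relative to its neighbours the Myc probe thus read -1.82 in lymphoma mouse 6 and 1.61 in lymphoma mouse 8, while in the other 6 lymphoma mice it lay 0.12 to 0.49 above them.

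Myc probe minus neighbours averaged 0.23 ± 0.95 in lymphoma mice, against -0.19 ± 0.46 in no-lymphoma mice. The difference of 0.42 was within the spread between mice (two-sided exact permutation p = 0.178, adjusted p = 0.296), and was 0.43 when blocked by scan batch (exact permutation p = 0.396). Within scan batches 1, 3, 5 and 6 it was 0.02, 0.47, 2.48 and -1.46. Single arrays moved this value: without lymphoma mouse 6 the difference was 0.71 (exact permutation p = 0.00242), and without lymphoma mouse 8 it was 0.22 (exact permutation p = 0.442). With normexp background correction of all arrays it was -0.03 (exact permutation p = 0.882). Taken as a level, the Myc probe averaged 0.73 ± 0.87 in lymphoma mice, against -0.08 ± 0.34 in no-lymphoma mice, a difference of 0.82 (SE 0.25, limma adjusted p = 0.0489), and this call was lost in 7 of the 8 alternatives that gave a value, with adjusted p from 0.0504 to 0.339.

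The brightness of the Myc spot moved with these departures. In 7 arrays, all of scan batches 5 and 6, the spot lay under 40 intensity units above its local background in at least 1 channel. There the Myc probe differed from its neighbours by -1.82 to 1.61. In lymphoma mouse 6 the red channel read 101 over a background of 75 and the green 82 over 45, and in lymphoma mouse 8 they read 78 over 61 and 61 over 49. After normexp correction the difference from neighbours was -1.18 in lymphoma mouse 6 and -0.20 in lymphoma mouse 8.

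In the other 15 arrays the Myc probe differed from its neighbours by -0.36 to 0.49. Among these, 5 lymphoma mice read 0.39 ± 0.08 above their neighbours and 10 no-lymphoma mice -0.07 ± 0.25, a difference of 0.46 (exact permutation over 3003 splits, p = 0.0030), a subset chosen after seeing the data. No-lymphoma mouse 2, scanned with lymphoma mice 1, 3 and 4, read 0.37 there, against a mean of 0.39 in those mice. With normexp correction the same 15 arrays ran from -0.41 to 0.37. The part of spot brightness and scan batch in the Myc values was not tested beyond these values.

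**Figure D5:**
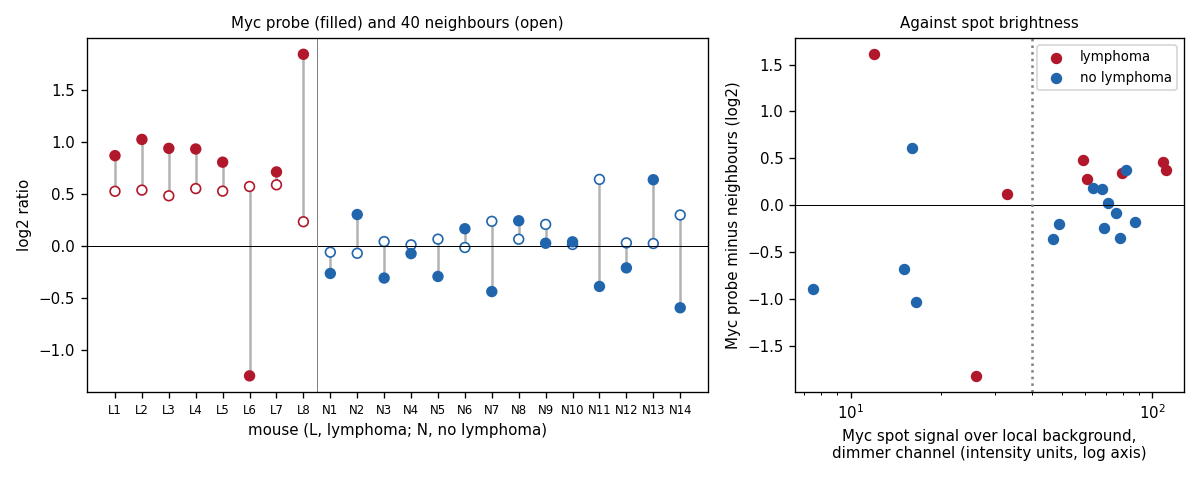
Left, log2 ratio of the Myc probe (filled) and median of its 40 nearest probes (open) in each mouse, lymphoma left of no lymphoma. Right, their difference against the signal of the Myc spot over its local background in the dimmer channel (log axis), with 40 units dotted. The widest differences, from -1.82 to 1.61, belong to spots under 40 units.

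Isolated probes departed from the local level in both groups. A departure was counted where a probe lay over 4 noise SD from the running median of 7 probes in the same array. There were 74 among 9524 probe values, 55 low and 19 high, at 36 of the 433 probes. Over all autosomal probe values 0.93% departed so. In no array did adjacent probes depart in the same direction. Lymphoma mice had 2.38 ± 2.20 departures per array and no-lymphoma mice 3.93 ± 6.06, a difference of -1.55 within the spread between mice (exact permutation p = 0.539). A block for scan batch gave -3.63 (exact permutation p = 0.170), and with normexp background correction it was 10.5 (exact permutation p = 0.0850).

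Departures gathered in a few arrays. No-lymphoma mice 7, 14 and 13 had 18, 16 and 9, and lymphoma mouse 6 had 7, together 50 of the 74. These were also the 4 arrays with the highest rates on all autosomes, at 2.29% or more. At 15 probes no-lymphoma mice 7 and 14 both departed low, and at 12 of these 15 no-lymphoma mouse 13 lay above its local level. The arrays of no-lymphoma mice 7 and 14 correlated at 0.82 over all autosomal probes. The departing spots were dimmer, with a median of 84.3 units over background in red and 71.0 in green, against 239.5 and 141 at all other values. Most were not under 40 units, the limit used for the Myc spot: 16 of the 74 (21.6%) were, against 2.52% of the other values.

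The widest departure, -3.04, belonged to the Cyrib probe printed above in lymphoma mouse 2. In the other 21 arrays this probe lay between -0.40 and 0.49 relative to its local level. The Nsmce2 probe departed to -2.75, -2.54 and -1.96 on arrays labelled as no-lymphoma mouse 4, 3 and 9, and its highest departure, 0.91, was in lymphoma mouse 3. These are the noisiest arrays, and the value of -1.96 did not pass 4 noise SD there.

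The Asap1 probe departed low in lymphoma mouse 8 and no-lymphoma mice 14 and 7, at -1.16, -2.04 and -1.62, all scanned in batch 5. A Washc5 probe (chr15:59402292-59402351) lay at -2.01 and -1.29 relative to its local level in no-lymphoma mice 14 and 7, and at 0.84 in no-lymphoma mouse 13. A Mtss1 probe (chr15:59014349-59014408) lay at -1.999 relative to its local level in lymphoma mouse 6 and at -0.81 in lymphoma mouse 7. A probe of the transcript AK144854 (chr15:62551022-62551081) lay at 1.99 relative to its local level in no-lymphoma mouse 5.

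Averaged over all 22 arrays, probes stayed close to their local level. The lowest mean departure was -0.39 ± 0.26 at a probe of Asap1 (chr15:64294128-64294187), below 0 in 19 of 22 arrays. The highest was 0.25 ± 0.39 at a probe of the transcript BC113153, which at 51.1% GC was also one of the more GC-rich probes named here. This probe lay at 0.98, 1.06 and 1.25 on arrays labelled as no-lymphoma mouse 3, 4 and 9, the noisiest. On the other arrays it lay between -0.30 and 0.49, and it passed 4 noise SD in 0 arrays. The 6 lowest mean departures ended at -0.24 and the 6 highest at 0.22.

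Values on both sides of each edge of the stretch lay close together in lymphoma mice. The last probe before 59 Mb, in Tatdn1, averaged 0.52 ± 0.15 in lymphoma mice, against 0.04 ± 0.26 in no-lymphoma mice, and the first inside, in Ndufb9, 0.45 ± 0.22 and 0.10 ± 0.29. The last probe inside, in Adcy8, averaged 0.49 ± 0.19 in lymphoma mice, against 0.22 ± 0.18 in no-lymphoma mice, and the first beyond 65 Mb, also in Adcy8, 0.43 ± 0.09 and 0.05 ± 0.19.

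The MYC network was also examined for copy number. Of 24 listed partners, antagonists, regulators and cooperating genes, 22 were found on the array and 15 had at least 3 probes, the minimum for testing. Of the 15, 1 was higher in lymphoma and 0 were lower, against 6.67% and 2.51% of 12991 genes. The 1 gene, Skp2, a ubiquitin ligase subunit that acts on MYC, lies on proximal chromosome 15 (chr15:9171319-9197387) and averaged 0.33 ± 0.19 in lymphoma mice, against 0.01 ± 0.17 in no-lymphoma mice (difference 0.33, SE 0.07, limma adjusted p = 0.00593). It was not called with scan batch as a block.

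The median difference over the 15 genes was 0.08, against 0.05 over all genes. Max, the partner of MYC, read 0.11 ± 0.11 in lymphoma mice, against 0.0008 ± 0.30 in no-lymphoma mice (limma adjusted p = 0.510). Fbxw7, whose product marks MYC for degradation, read -0.01 ± 0.08 and -0.0051 ± 0.12 in these groups. Of those with fewer probes, Mycn read 0.02 ± 0.16 in lymphoma mice, against -0.10 ± 0.18 in no-lymphoma mice, and Pim1, a kinase known to cooperate with MYC in lymphoma, 0.33 ± 0.22 and 0.22 ± 0.17.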

How the data were processed

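Thymocyte DNA of 22 Atm-deficient mice was hybridised against wildtype DNA. Processed intensity values in the deposited scanner files were background-subtracted and dye-normalised by the authors with Feature Extraction 9.1.3.1, protocol CGH-v4_91, per the file headers (9.1 per the submitters' processing notes). The deposited value table, in log10, equalled the log10 ratio of red over green in the scanner files. The genome build and annotation are not given in the sources used here. Every table column was matched to a mouse.

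Log2 ratios were computed from processed intensity. Spots flagged as outliers (3 to 111 per array) were dropped, spots of a probe averaged and arrays centred on the autosomal median, with no loess or quantile step. Array medians of spot signal were 146 to 226 units (green) and 146 to 397 units (red). Precision is limited by how many arrays there are. Old gene names were updated through a RefSeq table (GRCm38.p6), for names only.

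Groups were compared by exact permutation and with limma 3.58.1 (lmFit, eBayes, Benjamini-Hochberg over all autosomal probes or genes). Segments came from optimal partitioning (penalty factor 3, at least 5 probes). The methods were tested on simulated data. For limma these held independent noise, with no scan batches and no correlation between arrays, so they do not bear on those limits. Python 3.11.15, numpy 2.4.6, scipy 1.17.1 and R 4.3.3 were used. Each array is 1 mouse by its label. Alternatives were other centring, normexp (offset 50), a filter on dim probes, scan batch as a block, arrays left out or sign-turned, other bounds and levels, and GC regression. Short scanner files hold no mean signal, so normexp used median signals. Named are Myc, the listed genes found in the stretch, the 6 probes with the lowest and the 6 with the highest mean departure, and the 6 with the widest departure in 1 array. Of the mean departures the extremes are given. Members and lists were chosen with earlier results of these data known.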

Additional observations from a re-analysis of the deposited data

Results flagged for a closer look

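In the lymphoma group, 1 of 8 values stood apart by Dixon's ratio in 10 of the 18 measures examined. Chance alone gives about 1 such group in 20, and the measures share probes and arrays.

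Lymphoma mouse 8 was the lowest in 7 of them. Its stretch level was 0.2012, against 0.53 to 0.61 in the other lymphoma mice. Among gene means, it read 0.1341 for Sqle, -0.0389 for Washc5, 0.2073 for Nsmce2, -7.016e-05 for Lratd2, 0.1516 for Asap1 and 0.1211 for Adcy8. The others lay at 0.55 to 0.59 for Asap1 and 0.34 to 0.50 for Adcy8. The rest of chromosome 15 was low in the same mouse, at 0.15.

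Lymphoma mouse 6 stood apart in the other 3. Its Myc probe read -1.251, against 0.71 to 1.84 in the other lymphoma mice, and lay at -1.821 relative to its neighbours, against 0.12 to 1.61. It had 7 departing probes in the stretch, against 0 to 3, and its rate on all autosomes, 2.85%, was the highest of the lymphoma arrays.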

How the results depend on the processing

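The difference in stretch level kept its direction and stayed past the threshold in every alternative run, from 0.38 to 0.47 (0.39 to 0.45 when each array was left out in turn). The excess over the rest of chromosome 15 passed between groups with normexp (0.0565) and with the sign of arrays labelled as no-lymphoma mouse 3, 4 and 9 turned (0.0674), and was -0.00386 without lymphoma mouse 2. It ran to 0.0256 when other arrays were left out. In lymphoma mice alone it lost the call from 61 to 63 Mb (0.0346), and leaving out each array gave 0.0444 to 0.0739. Myc probe minus neighbours was -0.0282 with normexp, 0.455 on arrays with a brighter Myc spot, where it passed, and 0.22 to 0.71 with each array left out, lowest without lymphoma mouse 8 and past the threshold without lymphoma mouse 6. Departures per array differed by 10.5 with normexp, against -1.55, and by -2.21 to -0.471 with arrays left out. Probes called numbered 38 with scan batch as a block, against 200, of which 63 lay between 61 and 63 Mb. Within the chromosome 4 were called without arrays labelled as no-lymphoma mouse 3, 4 and 9 and 4 with their sign turned, against 0. Of MYC network genes 0 were called with the block and 2, Skp2 and Myc, with at least 1 probe per gene, against 1. Of 125 gene values under alternatives, 107 kept their call, 16 lost it and 2 gained it, with no change of sign. The share of autosomal probe calls that were higher in lymphoma was 74.0% and 89.9% with normexp. The cause of these changes was not tested. The filter on dim probes gave no value for Myc, whose probe it removes. GC regression, leaving out single arrays and the subset by Myc brightness were chosen after seeing the data. No paired analysis was possible because the labels give the groups no shared replicate numbers. Spot brightness limits what the 1 Myc probe shows.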

Other observations

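Autosomes were divided into 415 windows of 6 Mb, in step with the stretch around Myc, and each was set against the rest of its own chromosome. The difference between lymphoma and no-lymphoma mice in this excess was 0.02 for the Myc window. Of the 18 windows of chromosome 15, 15 were at least as far from 0, and of all 415 windows, 340 were (81.9%). On chromosome 15 the differences ran from -0.23 to 0.11. Set against the 10 Mb on either side instead, the Myc window differed by 0.02, and 285 of 415 windows (68.7%) were at least as far from 0. Windows of a chromosome share arrays and are given as a description.

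A segment border before the stretch recurred in arrays with and without a gain. A segment reaching into the stretch began between 57.4 and 58.0 Mb in 6 lymphoma and 5 no-lymphoma arrays. No-lymphoma mice 8 and 13, at levels of 0.05 and 0.03 in the stretch, were among them. Borders at the proximal edge of the stretch, just beyond Trib1 and at the Myc probe were found in 3, 3 and 2 lymphoma arrays and in 0 no-lymphoma arrays, and the border in distal Asap1 in 3 lymphoma arrays and 1 no-lymphoma array. The arrays were not all divided equally finely. Lymphoma mice 2, 5 and 7, which supplied the borders not found in no-lymphoma arrays, had 49, 25 and 37 segments on chromosome 15. Among no-lymphoma arrays the number ran from 1, on mice 3 and 4, to 42 on mouse 2. The penalty for a border was set from the noise of each array, so a step had to be larger on noisier arrays. Noise was 0.15, 0.15 and 0.16 on lymphoma mice 2, 5 and 7, against 0.55 and 0.49 on arrays labelled as no-lymphoma mouse 3 and 4. No-lymphoma mice 8 and 10, with noise of 0.13 each, had 10 and 6 segments. The difference in border counts was not tested, nor was its relation to the number of segments or to noise.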
